A study of Mus musculus with 78 samples.

Results

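The mitochondrial ribosome protein genes were taken as the rows of the 4-cell and the 8-cell gene table whose Entrez number is that of a mouse protein-coding gene with a symbol starting in Mrpl or Mrps and a number. This rule uses names and no measured value. It found 78 genes, 49 Mrpl and 29 Mrps, and all 78 were listed in both tables, which hold 15218 and 15342 genes and have 13604 in common. The 6 annotated pseudogenes with a symbol of this form were in neither table. By subunit, 51 of the members encode proteins of the large subunit, 30 of them with a bacterial homologue and 21 specific to mitochondria. The other 27 encode proteins of the small subunit, 17 with a bacterial homologue and 10 without. Mrps18a and Mrps30 carry small-subunit names but encode proteins of the large subunit and were counted there. Mrps18a, a paralogue of bacterial S18, was counted among the 21 specific to mitochondria, while its paralogues Mrps18b and Mrps18c were counted with a bacterial homologue. The class counts and class medians depend on that choice.

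Rainbow-seq reads the descent and the transcriptome of a single blastomere from the same sequencing library. Embryos came from a cross of a strain with the CAG-Brainbow2.1 cassette at Gt(ROSA)26Sor and mice of STOCK Tg(CAG-cre/Esr1*)5Amc/J. Every embryo therefore had a single copy of the cassette and a single copy of the tamoxifen-inducible Cre, driven by the ubiquitous CAG promoter, and the labels describe no embryos without these alleles. All embryos were exposed briefly to 4-hydroxytamoxifen in KSOM medium as 2-cell embryos and then cultured in vitro. Single blastomeres were lysed and amplified by Smart-seq2, which covers transcripts along their full length but carries no molecular identifiers. The labels describe 36 blastomeres of 9 4-cell embryos and 31 blastomeres of 4 8-cell embryos, and the gene tables hold 24 and 26 columns, of which 5 at the 8-cell stage share the name NA. The labels also give the lineage of 5 8-cell blastomeres as NA and resolve it for 26, as many as the 8-cell columns. Whether the columns named NA are the blastomeres labelled NA was not tested. No column name matches the label of a blastomere, and columns were not assigned to embryos or lineages by their order or depth, so each stage was treated as 1 sample. Values are given as the range and median over blastomeres with no test, and the comparison of lineages was not run. The stages also differ in libraries, so stage and library preparation cannot be told apart.

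The mitochondrial ribosome translates the few proteins that the mitochondrial genome encodes, all of them core subunits of the respiratory chain and the ATP synthase. Its RNAs are made inside the organelle, while every one of its proteins is encoded in the nucleus, translated in the cytosol and imported, so the particle joins products of both genomes. The preimplantation embryo inherits its mitochondria from the oocyte, and the 4-cell and 8-cell stages follow the activation of the embryonic genome, when maternal transcripts are being replaced.

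Expression was measured as FPKM, fragments per kilobase of transcript and per 1000000 fragments, and a gene was called detected above an FPKM of 1. Estimated from the smallest steps in the values, the FPKM denominators lay between 6870000 and 16900000 fragments in 4-cell columns, around a median of 13400000, and between 2340000 and 21700000, around a median of 17200000, in 8-cell columns. A member of median exon length, 1130 bases, then reaches an FPKM of 1 with 7.76 to 19 fragments at the 4-cell and 2.64 to 24.6 fragments at the 8-cell stage. The 4-cell columns S18, S20 and S24 and the 8-cell columns S57 and S58 had fewer than 0.7 times the median number of detected genes of their stage and are called gene-poor here. Dppa3, a maternal factor of oocytes and early embryos, had the highest median of all genes in both tables, 3658 and 3260 FPKM. Of the 10 listed markers of the preimplantation embryo, to which it belongs, 9 had a median above 1 at the 4-cell stage and 7 at the 8-cell stage. Zscan4d had a median of 0 at both stages, and at the 8-cell stage Gdf9 had 0 and Nlrp5 0.122 FPKM. Markers of granulosa cells, sperm and blood had medians of 0 at both stages, and their highest summed levels in any blastomere were 3.06, 23.3 and 40.6 FPKM.

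All 78 members had a median FPKM above 1 at the 4-cell stage, where 44.4% of all listed genes did, and all 78 did at the 8-cell stage, where the share of all genes was 40.6%. The median of the members' medians was 63.4 FPKM at the 4-cell stage and 67.1 at the 8-cell stage, and the medians ran from 3.14 to 455 and from 3.88 to 475. By rank, the top 10% of listed genes held 42 members among 4-cell and 43 among 8-cell blastomeres, and the top 25% held 74 and 75. Large-subunit members had a median of 67.1 FPKM at the 4-cell stage and 70.2 at the 8-cell one, and small-subunit members 61.2 and 48.2. Gene by gene the small subunit did not go the same way as these medians, since 15 of its members were higher and 12 lower at the 8-cell stage, with a median log2 difference of 0.20, while the large subunit had 26 higher and 25 lower and a median of 0.03. The mitochondria-specific proteins of the small subunit were the lowest of the 4 classes, with 35.3 and 41.3.

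**Figure D1:**
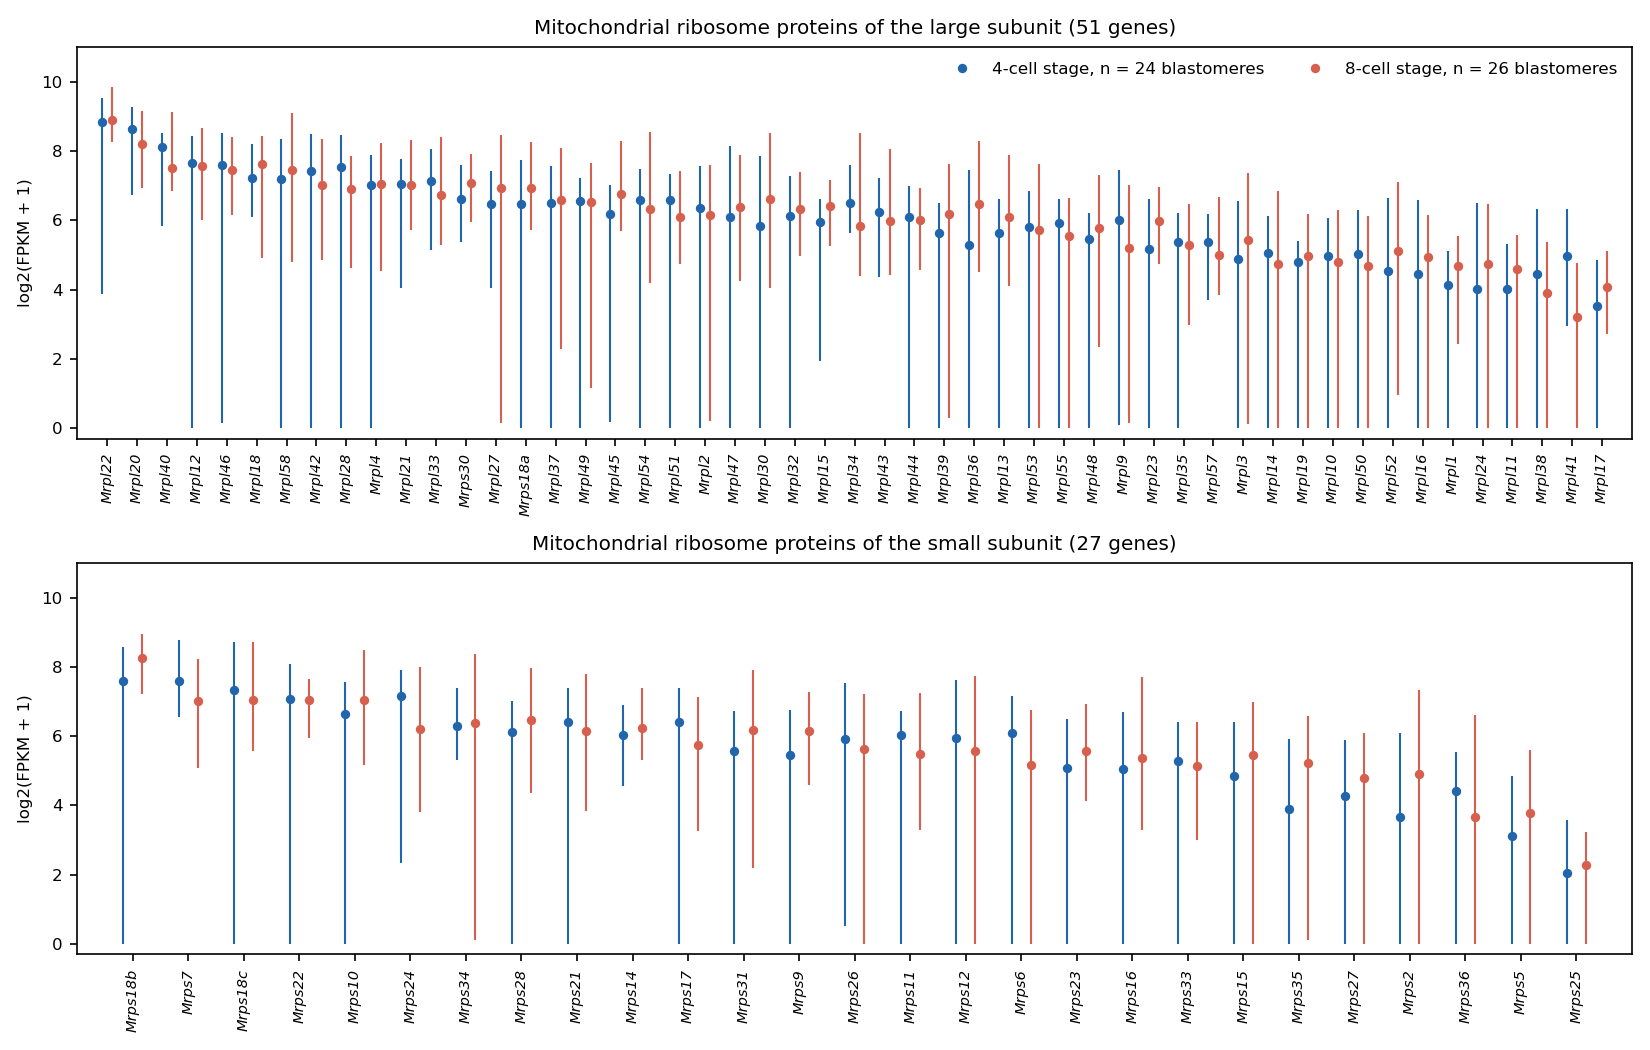
Level of each of the 78 members on the log2(FPKM + 1) scale, large subunit above and small subunit below. Dots are medians and lines run from the lowest to the highest blastomere, 24 at the 4-cell stage (blue) and 26 at the 8-cell stage (red); Mrpl22 stood at the top and Mrps25 at the bottom at both stages, and many 4-cell lines reach down to 0.

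Mrpl22, whose bacterial counterpart lines the exit tunnel of the nascent peptide, was the highest member at both stages. It lay between 13.6 and 730 FPKM with a median of 455 at the 4-cell stage, and between 308 and 916 with a median of 475 at the 8-cell stage. Mrpl20, a large-subunit protein needed early in bacterial ribosome assembly, followed at the 4-cell stage with 106 to 618 FPKM and a median of 397, and its 8-cell median was 291. Mrpl40, specific to mitochondria, had medians of 278 and 180. Mrpl12, the stalk protein that in bacteria recruits translation factors, had medians of 201 and 189. The neighbours in this order overlapped widely in their ranges. Mrps7, a small-subunit protein of the head domain, had medians of 193 and 128, and 6.81% of its exon bases are shared with Mif4gd on the other strand. Mrpl18, a 5S rRNA-binding protein in bacteria, had medians of 149 and 195.

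At the other end stood Mrps25, a mitochondria-specific protein of the small subunit, with 0 to 10.9 FPKM and a median of 3.14 at the 4-cell stage and 0 to 8.32 with a median of 3.88 at the 8-cell stage. Even its place near the bottom of the members was within the upper part of the tables, at rank 5827 and 5305. Exons of Nr2c2 on the opposite strand cover 58.4% of its exon bases, and reads from such a pair cannot be told apart where counting ignores strand. Mrps5, a small-subunit protein beside the mRNA channel, had medians of 7.68 and 12.7 FPKM, and Mrpl17, a large-subunit protein, 10.6 and 15.7. Mrpl17 and Mrps25 have the longest exons of the members named here, 6712 and 6076 bases, and across the 78 members exon length and level had a Spearman's rho of −0.30 in 4-cell and −0.26 in 8-cell blastomeres. These correlations run across genes, which are not independent replicates.

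Within a blastomere most members were detected. The number of members above an FPKM of 1 ran from 24 to 78 with a median of 76 at the 4-cell stage, and from 64 to 78 with a median of 76.5 at the 8-cell stage. All 78 were above 1 in 9 of 24 4-cell and 9 of 26 8-cell blastomeres. Across blastomeres, 17 members, or 21.8%, were above 1 in every 4-cell blastomere, where 8.88% of all genes were. For the 8-cell embryos, 50 members, or 64.1%, were above 1 in every blastomere, against 11.4% of all genes. Those 17 and 50 do not compare stages directly, because the 3 gene-poor 4-cell columns decided much of the first number: without them 53 members were above 1 in every 4-cell blastomere, where 17.9% of all genes were. Without the 2 gene-poor 8-cell columns 59 members were above 1 in every 8-cell blastomere, beside 14.6% of all genes, and without the 6 8-cell columns with the fewest detected genes 62 were, beside 19.1%. Of all 129 member values listed at 0 at the 4-cell stage, 98, or 76.0%, lay in the 3 gene-poor columns, which hold 17.7% of the zeros of all genes. The latter share includes genes with a median at or below 1. Among genes with a median above 1, 47.0% were at 0 in S18 and 38.8% in S20, beside 57.7% and 55.1% of the members.

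S18 and S20 stood apart. In S18, 24 members were above 1 and 45 were listed at 0, and in S20, 33 were above 1 and 43 at 0. The members made up 0.651% and 0.688% of the summed FPKM there, while the other 4-cell blastomeres, including the gene-poor S24 at 1.64%, ran from 1.18% to 1.90%. Among the 1320 genes whose 4-cell median lay within the quartiles of the members, 32.1 to 94.6 FPKM, 50.8% were above 1 in S18 and 63.2% in S20, compared with 30.8% and 42.3% of the members. Cytosolic ribosomal proteins were above 1 for 84.3% of 83 genes in S18 and 91.6% in S20. Nuclear genes of the respiratory chain, 78 in number, were above 1 for 34.6% and 57.7%. In both columns 17 members, or 21.8%, were above 1, beside 38.9% of the 1320 genes and 29.6% of all genes with a median above 1. In neither of them 38 members, or 48.7%, were above 1, beside 25% of the 1320 genes and 39.9% of all genes with a median above 1. Among the 17 was Mrps30, with 97.5 FPKM in S18 and 108 in S20 beside a stage median of 96.2, and Mrpl43, with 89.4 and 114 beside 74.9. Exons of Twnk on the opposite strand cover 31.7% of the exon bases of Mrpl43. Mrpl22, the highest member, was at 13.6 and 78.6. These values came together with a low number of detected genes (3009 in S18), whose part in the result was not tested. Reads of the mitochondrial genome, whose share is a common sign of RNA quality, could not be set beside them, since none of its 37 annotated genes is listed in either table. The study's read summary gives that share per blastomere, and blastomeres with a high share hold places in its order like those of S18 and S20. It was not used here because columns were not assigned to blastomeres, and its part in the result was not tested.

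**Figure D2:**
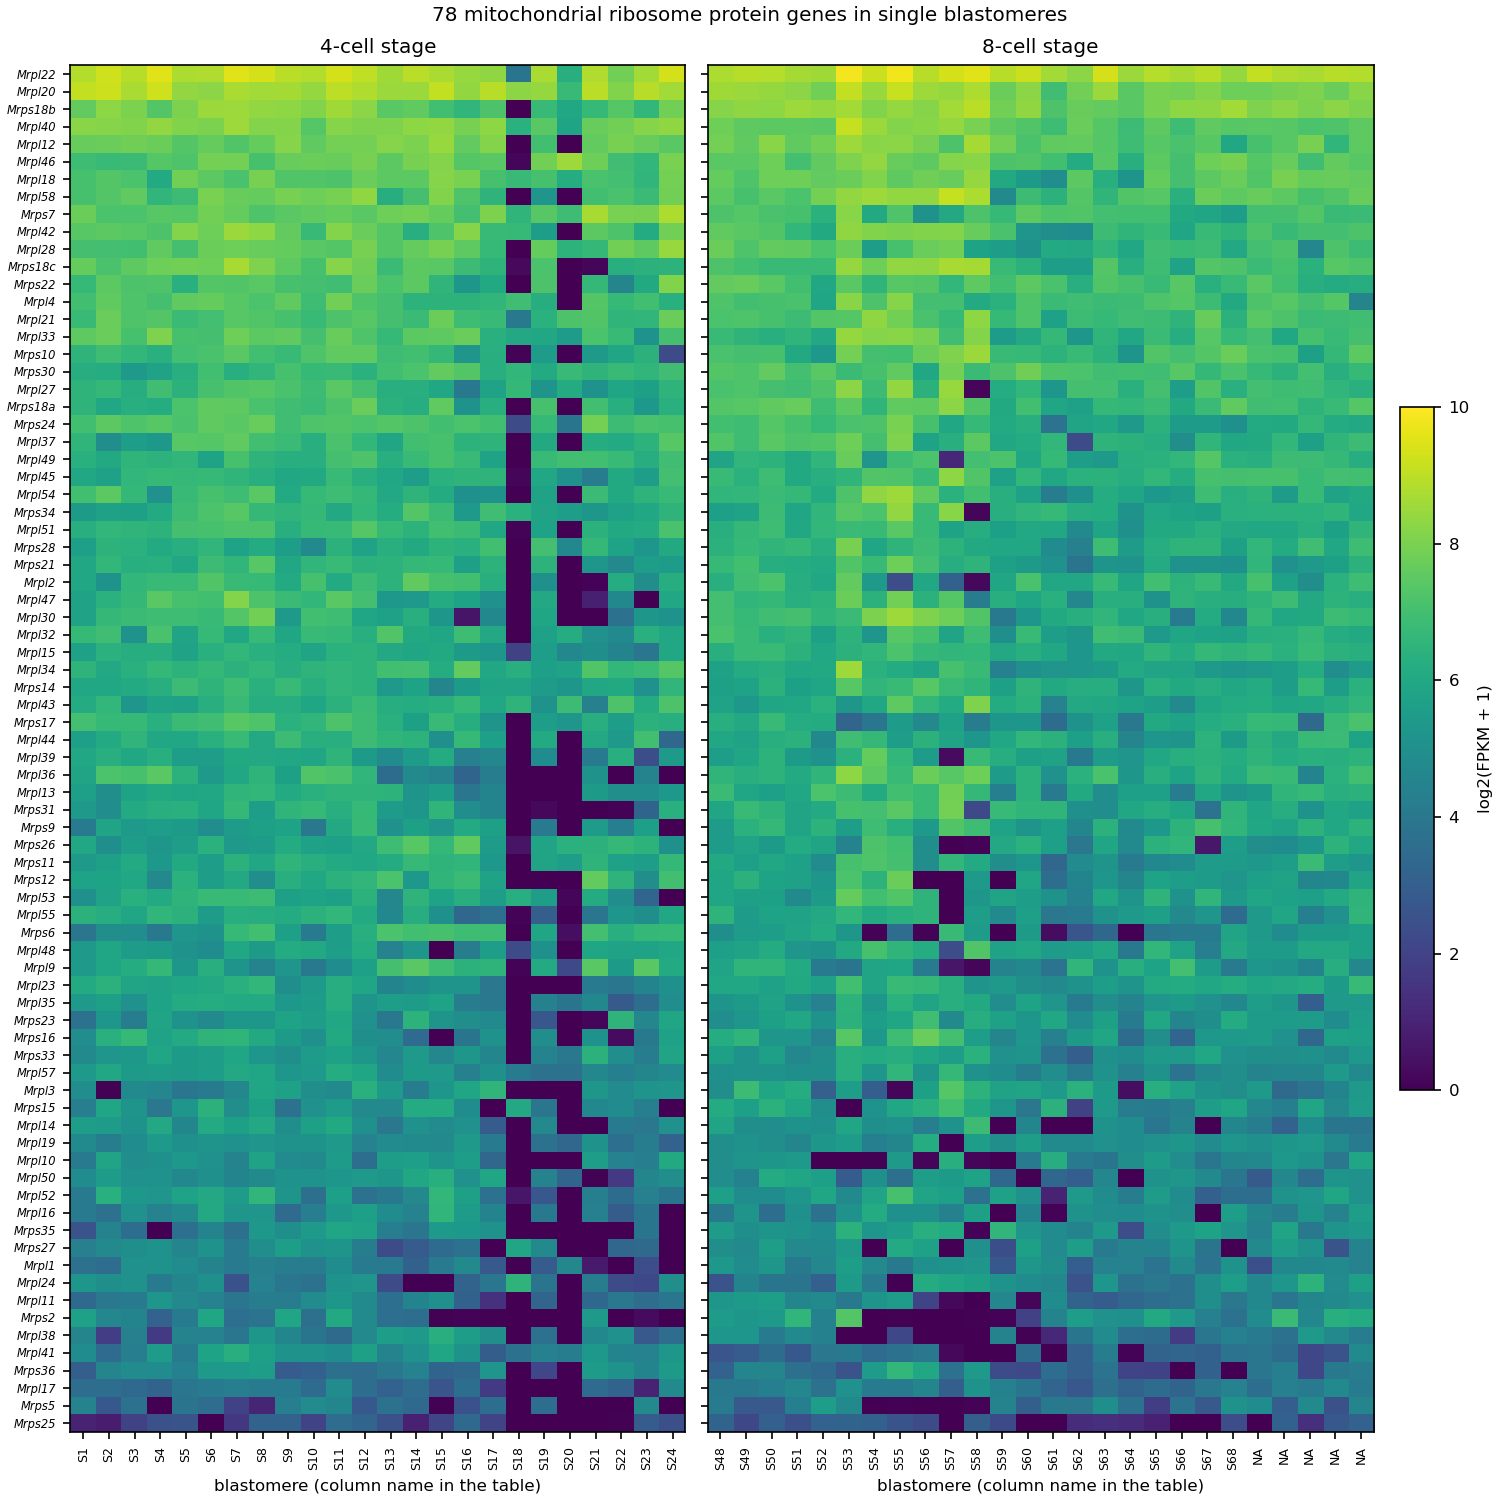
FPKM of the 78 members (rows, ordered by level) in each of the 24 4-cell and 26 8-cell blastomeres (columns), coloured by log2(FPKM + 1) from 0 to 10. The dark columns are S18, with 45 members at 0, and S20, with 43; dark runs in single rows mark Mrps2, Mrps5, Mrpl38 and Mrpl10 in neighbouring columns.

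At the 8-cell stage some members dropped out in the same columns. Mrps5 was at or below 1 in 5 of 26 blastomeres, and those were S54, S55, S56, S57 and S58, while the remaining 21 ran from 2.61 to 47.5 FPKM. Mrps2, a small-subunit protein with a bacterial homologue, was at or below 1 in the same 5 and in S59. Mrpl38, a mitochondria-specific protein of the large subunit, was at or below 1 in S53, S54, S56, S57, S58 and S60. Mrpl10, the protein that anchors the stalk in bacteria, was at or below 1 in S52, S53, S54, S56, S58 and S59, and in S18, S19 and S20 at the 4-cell stage. These 4 genes were singled out after their values were seen. Columns S53 to S58 were also the 6 8-cell blastomeres with the fewest detected genes, 3548 to 5391, and held 45 of the 78 member values at or below 1, or 57.7%. In these columns 9.62% of member values were at or below 1, beside 12% for the 1312 genes with 8-cell medians within the members' quartiles and 32.9% for all genes with a median above 1. In the other columns the shares were 2.12%, 0.861% and 10.8%. Beside the 57.7% for the members, S53 to S58 held 80.7% of the values at or below 1 of the 1312 genes. For all genes with a median above 1 they held 47.9%. The column names do not give the embryo. The depth of the columns runs in an order much like that of the blastomeres in the study's read summary, so these neighbouring columns may come from the same embryo, and the 4-cell columns S18 and S20 from another, which was not tested.

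Those 6 columns had at the same time the 6 highest shares of summed FPKM for the members, 1.88% to 2.35%, while the other 20 ran from 1.12% to 1.69%. The share was 2.35% in S53, 1.97% in S54, 2.26% in S55, 1.88% in S56, 2.06% in S57 and 2.03% in S58. Respiratory chain genes took 3.02% to 4.03% in the 6 columns and 1.88% to 3.04% in the others, and cytosolic ribosomal proteins 9.41% to 12.3% and 6.91% to 10.8%. Thus few detected genes went with a low share of the members in 4-cell columns S18 and S20 and with a high share in these 8-cell columns. The part of the number of detected genes in either was not tested.

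**Figure D3:**
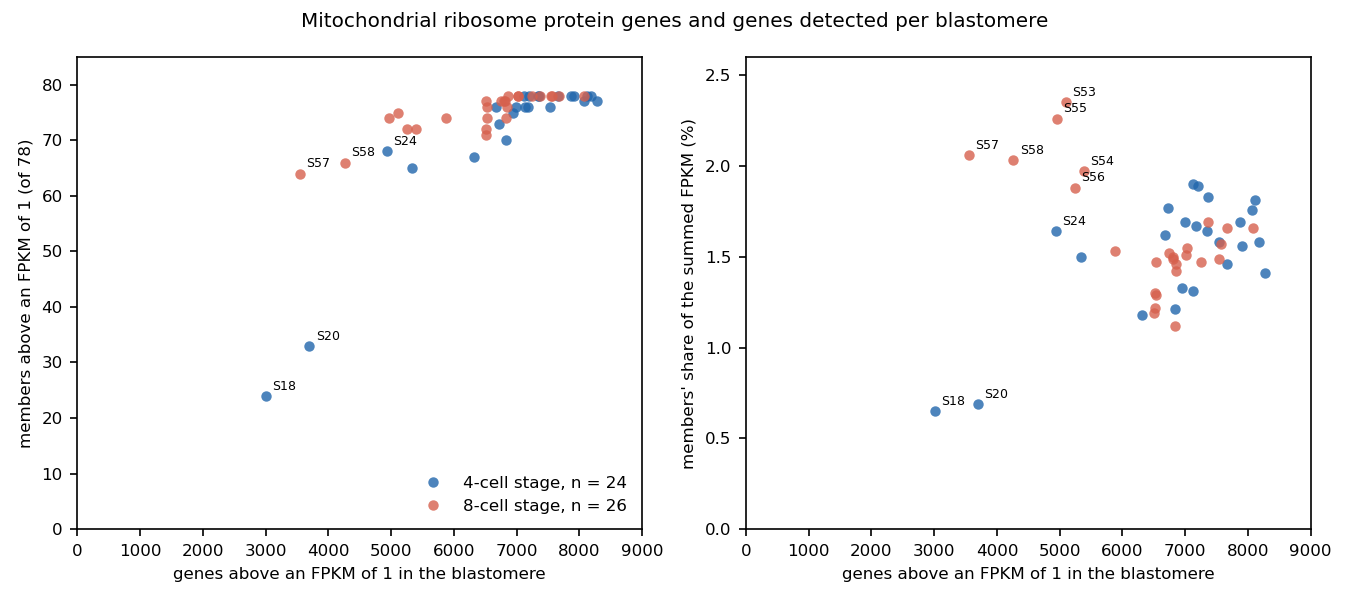
Number of members above an FPKM of 1 (left) and the members' share of the summed FPKM in percent (right) against the number of detected genes, 1 point per blastomere. The 4-cell columns S18 and S20 lie at 0.651% and 0.688%, and the 8-cell columns S53 to S58 between 1.88% and 2.35%, above every other blastomere except 2 4-cell ones that reach into that interval.

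From the 4-cell to the 8-cell stage the members largely kept their order. Their medians at the 2 stages had a Spearman's rho of 0.90 over the 78 genes, and 0.89 over the 7131 genes with a median above 1 at either stage. The difference between stages was taken as the 8-cell minus the 4-cell median of log2(FPKM + 1), and a gene was called at a difference of 1 or more. Of the members, 3 were called higher and 1 lower at the 8-cell stage, or 3.85% and 1.28%. Of all 13604 genes 5.17% were called higher and 9.67% lower, and of the 7131 genes with a median above 1 at either stage 9.87% and 18.5%. The median difference was 0.07 for the members, 0.00 for all genes and −0.11 for the 7131. Of the 78, 41 were higher and 37 lower at the 8-cell stage, and 47 differed by less than 0.5. At a limit of 0.5, chosen after the data were seen, 19 members (24.4%) were higher and 12 (15.4%) lower, beside 11.9% and 17.8% of all genes. These shares of all genes include genes with a median at or below 1, which no member has. Of the 7131 genes, which are closer to the members in level, 1557 were higher and 2255 lower at this limit. With means of log2 values in place of medians, 11 members were called higher and 2 lower, beside 4.56% and 6.76% of all genes, and 53 were higher and 25 lower at any size. Without the 6 8-cell columns with the fewest detected genes 3 were called higher and 3 lower, beside 7.64% and 7.62%, and the split at any size turned to 38 higher and 40 lower. No member, and none of the 13604 genes, had ranges at the 2 stages that did not overlap.

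Mrpl41, a mitochondria-specific protein of the large subunit, was the member called lower. It lay between 6.72 and 78.6 FPKM with a median of 30.5 at the 4-cell stage, where no blastomere was below 1. At the 8-cell stage it lay between 0 and 26.3 with a median of 8.31, and no 8-cell blastomere reached the 4-cell median. Of the 24 4-cell blastomeres 14 were above the highest 8-cell one, and 10 of 26 8-cell blastomeres below the lowest 4-cell one. The log2 difference was −1.76, and it stayed between −1.86 and −1.66 when any 1 blastomere was left out. The next falls, none of which reached the limit of 1, were those of Mrps24 at −0.97, Mrps6 at −0.94, Mrpl9 at −0.81 and Mrps36 at −0.76. Mrps6 passed the limit with means (−1.40), after rescaling (−1.12), without the columns named NA (−1.96) and without the gene-poor blastomeres (−1.32). Without the 6 8-cell columns with the fewest detected genes Mrps24 passed it at −1.06 and Mrps36 at −1.13. Mrps24, a small-subunit protein, had medians of 143 and 72.9 FPKM, and 3 of 26 8-cell blastomeres were above the 4-cell median. Mrps6, the partner of the S18 proteins on the platform of the small subunit, had medians of 67.7 and 34.8, with 2 of 26 above the 4-cell median. Its exons share 18.6% of their bases with Slc5a3 on the same strand. Mrps36, which has also been assigned to the oxoglutarate dehydrogenase complex, had medians of 20.2 and 11.6.

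Mrps35, a mitochondria-specific protein of the small subunit, had the largest rise by medians over all blastomeres. It lay between 0 and 59.4 FPKM with a median of 14 at the 4-cell stage, where 7 of 24 blastomeres were listed at 0. At the 8-cell stage it lay between 0.0750 and 95.1 with a median of 36.2, and 24 of 26 blastomeres were above the 4-cell median. The log2 difference was 1.31, and 0.95 without the gene-poor blastomeres. With means Mrpl36 rose more than Mrps35 (1.99 beside 1.78). Mrps2 rose more than Mrps35 after rescaling (1.41 beside 1.32) and without the gene-poor blastomeres (1.33 beside 0.95). It also did so without the 6 8-cell columns with the fewest detected genes (1.53 beside 1.27). Mrpl36, a small zinc-binding protein of the large subunit, ran from 0 to 175 with a median of 38.0, with 5 of 24 at 0, and then from 21.7 to 311 with a median of 88.4. Its log2 difference of 1.20 became 0.76 without the gene-poor blastomeres. For Mrps2 the 4-cell values lay between 0 and 67.2, around a median of 11.6, and the 8-cell values between 0 and 161, around 29.3. Its log2 difference of 1.27 became 0.84 without the 8-cell columns named NA. All 3 genes therefore had a stretch of near-zero values at 1 or both stages, and each lost its call under an alternative. Mrpl23 and Mrpl30, both with bacterial homologues, followed at 0.82 and 0.80. Mrpl23 had medians of 34.8 and 62, and Mrpl30 of 55.7 and 97.4.

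**Figure D4:**
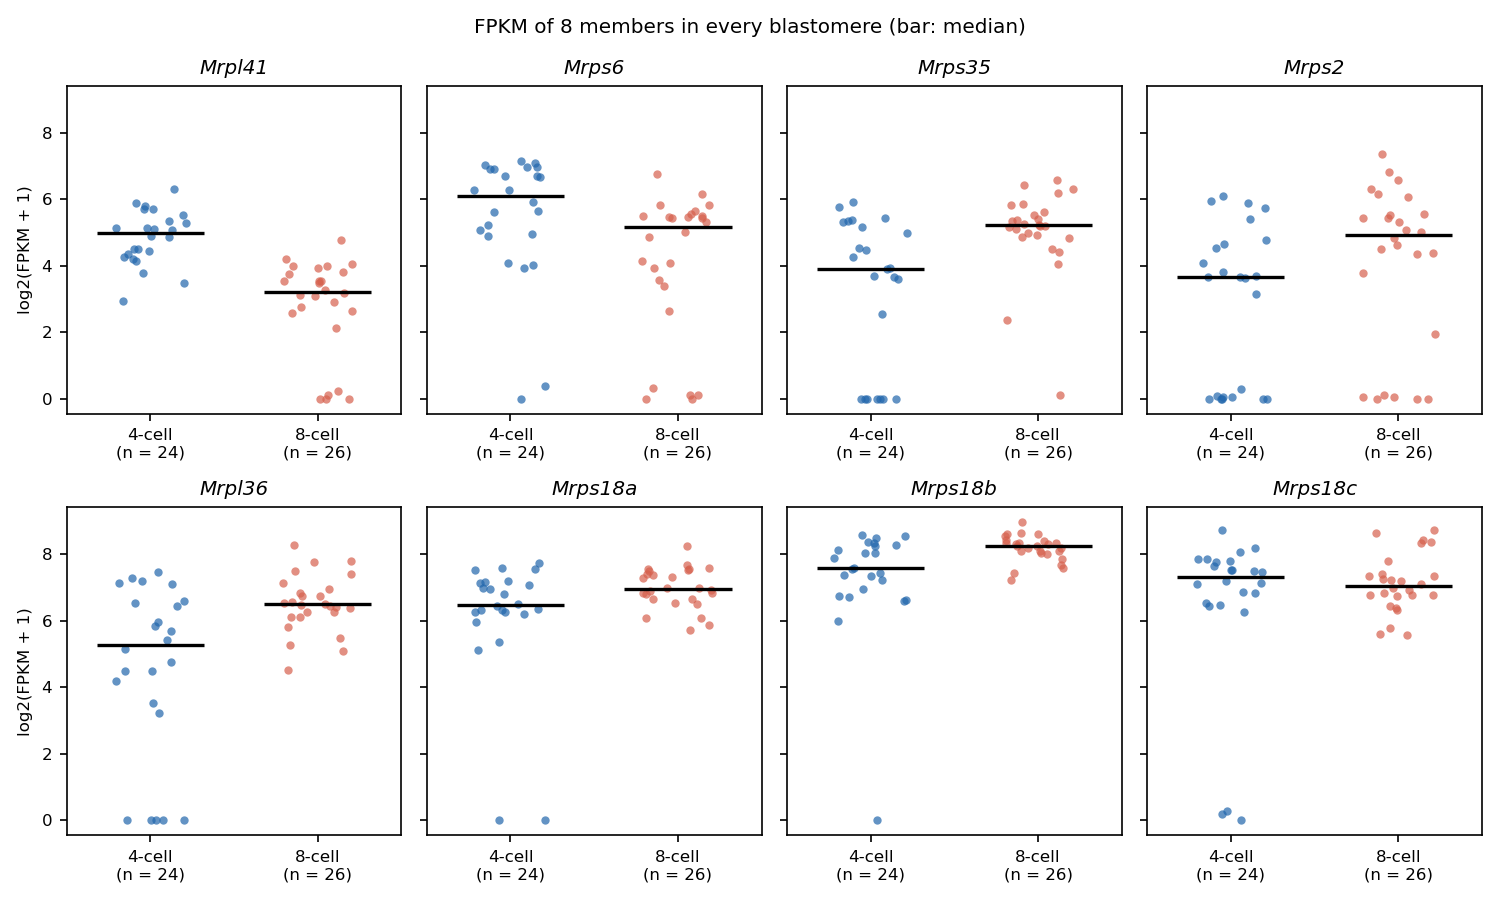
FPKM on the log2(FPKM + 1) scale of 8 members in every blastomere, 24 from 4-cell and 26 from 8-cell embryos, with a bar at the median. Mrpl41 sits lower at the 8-cell stage, at a median of 8.31 against 30.5 FPKM, while Mrps35, Mrps2 and Mrpl36 show a group of 4-cell points at or near 0.

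The 3 paralogues of bacterial S18 occupy different places in the particle, Mrps18a in the large and Mrps18b and Mrps18c in the small subunit. Mrps18b had 0 to 382 FPKM with a median of 190 at the 4-cell stage and 148 to 494 with a median of 303 at the 8-cell stage. Mrps18c had medians of 159 and 130, and Mrps18a of 87.0 and 122. Mrps18b was the highest of the 3 in 16 of 24 4-cell and in 24 of 26 8-cell blastomeres. It made up a median of 45.1% of their summed FPKM at the 4-cell stage and 52.3% at the 8-cell one, and Mrps18c 35.3% and 24.2%. Gm16279 on the opposite strand shares 12.5% of the exon bases of Mrps18b. Mrpl10 had similar levels at both stages, 0 to 66.2 FPKM with a median of 30.1 and 0 to 78.2 with a median of 26.6, a log2 difference of −0.17.

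Spread among blastomeres was smaller for the members than for genes at large. The interquartile range of log2(FPKM + 1) had a median of 1.02 over members in 4-cell and 0.87 in 8-cell blastomeres, beside 1.56 and 1.52 for all genes with a median above 1. The members were also at higher levels, since genes with a median above 1 at either stage had a median of medians of 14.6 and 14.1 FPKM, and the part of level in the spread was not tested. Of the 78 members, 50 had a narrower range at the 8-cell stage, as did 45.7% of the 5866 genes with a median above 1 at both stages. When the gene-poor blastomeres were left out 39 members did, beside 41.2% of such genes, and the members' median was then 0.82 at both stages. The narrowest 4-cell ranges were those of Mrpl40 at 0.31, Mrps24 at 0.37, Mrpl12 at 0.38, Mrpl34 at 0.44 and Mrpl18 at 0.47. Among 8-cell blastomeres Mrpl47 had 0.28, Mrps18b 0.35, Mrpl40 0.39, and Mrpl43, Mrpl4 and Mrpl15 0.41 each. The widest were Mrps35 at 5.19, Mrps2 at 4.62, Mrps5 at 3.75, Mrpl36 at 3.08 and Mrpl24 at 2.52 at the 4-cell stage. In 8-cell blastomeres they were Mrpl38 at 3.17, Mrps2 at 3.15, Mrps6 at 2.07, Mrps25 at 2.06 and Mrps5 at 1.96. Exons of Rrnad1 on the opposite strand cover 37.4% of the exon bases of Mrpl24. These wide ranges belong to members listed at 0 in part of the blastomeres.

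Members tended to rise and fall together over blastomeres. For the 3003 pairs of members the median Spearman's rho was 0.32 at the 4-cell stage and 0.21 at the 8-cell stage, while pairs of all genes with a median above 1 had 0.05 and 0.02. Pairs above 0.5 made up 24.2% of member pairs and 4.22% of all pairs at the 4-cell stage, and 11.7% and 1.82% at the 8-cell stage. Within the large subunit the median was 0.33 and 0.22, within the small subunit 0.26 and 0.18, and between the subunits 0.31 and 0.22, so pairs across the subunits were about as close as pairs within them. Pairs share their blastomeres and libraries, and these values are descriptions over 24 and 26 columns. Without the gene-poor blastomeres the members' median was 0.22 at the 4-cell stage and 0.23 at the 8-cell one. By Pearson's r over all columns it was 0.51 and 0.17. The part of the gene-poor columns in the distance between the stages was not tested. The 8-cell median was 0.17, and 0.01 for all genes, without S53 to S58. After every column was rescaled to an equal sum the members had 0.22 and 0.10, and all genes 0.04 and 0.03.

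**Figure D5:**
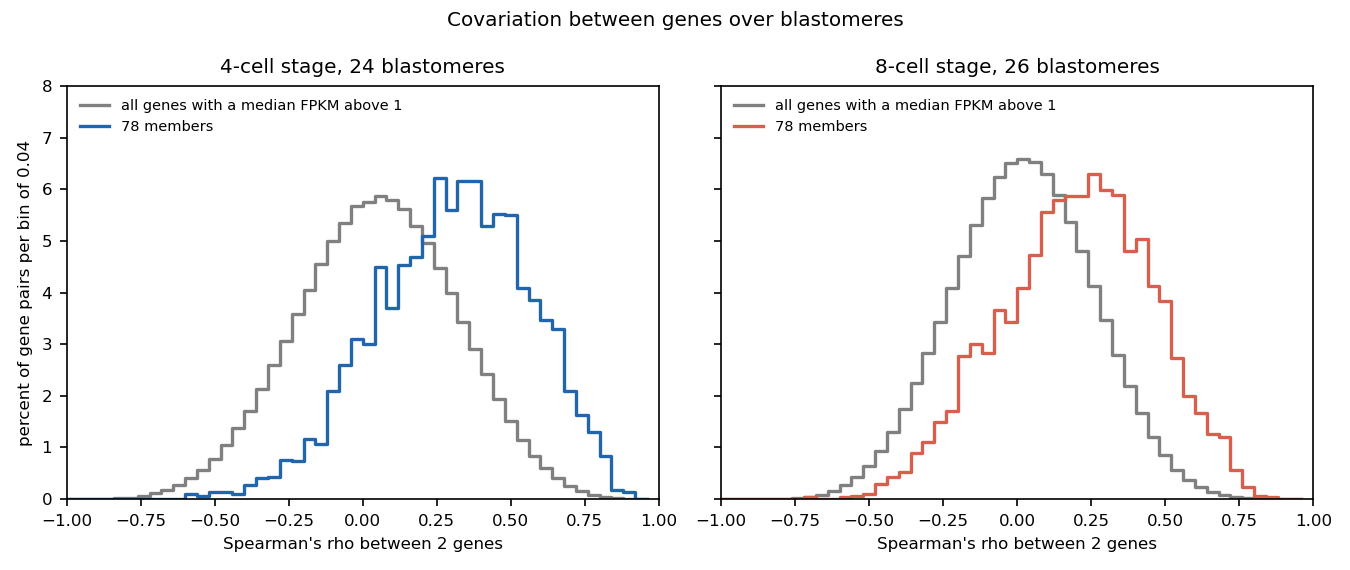
Distribution of Spearman's rho over all pairs of the 78 members (colour) and of all genes with a median FPKM above 1 (grey), as percent of pairs per bin of 0.04, at the 4-cell stage (24 blastomeres) and the 8-cell stage (26). The members' curves lie to the right of the grey ones, with medians of 0.32 and 0.21 against 0.05 and 0.02.

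The closest 4-cell pairs were Mrps17 with Mrpl23, Mrpl47 with Mrps18c, and Mrpl23 with Mrpl57, each at 0.91. The closest 8-cell pairs were Mrps21 with Mrpl42 at 0.85, Mrps18c with Mrpl46 at 0.82 and Mrps18c with Mrpl36 at 0.80. By median rho with the other members, Mrpl57 and Mrpl35, both at 0.52, were the most connected at the 4-cell stage. Mrpl47, Mrpl15, Mrpl51 and Mrps18c followed at 0.51 each. At the 8-cell stage the most connected were Mrpl42 at 0.42 and Mrpl20, Mrps21, Mrpl54 and Mrps11 at 0.41 each. Other members had a median near 0. Mrps26 had a median of −0.06, Mrpl9 −0.04 and Mrps30 −0.01 at the 4-cell stage, and the same 3 had −0.03, −0.09 and −0.03 at the 8-cell stage. The lowest at the 8-cell stage were Mrps5 at −0.19, Mrpl38 at −0.14, and Mrps2 and Mrpl9 at −0.09 each. Each was at or below 1 in some of the columns where the members' share was highest. Mrpl24 and Mrpl9 had the most negative 8-cell pair, at −0.69, and Mrps26 and Mrpl24 the most negative 4-cell pair, at −0.60.

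Covariation reached beyond the particle. Cytosolic ribosomal proteins had a median rho of 0.69 among themselves in 4-cell and 0.64 in 8-cell blastomeres, and nuclear respiratory chain genes 0.46 and 0.36. Members with cytosolic ribosomal proteins had 0.36 and 0.32, and members with respiratory chain genes 0.36 and 0.27, above the 0.32 and 0.21 among the members themselves. With all other genes above a median of 1 the members had 0.10 and −0.01. Over blastomeres, the members' share of summed FPKM and the share of the respiratory chain had a rho of 0.77 at the 4-cell stage (n = 24) and 0.85 at the 8-cell stage (n = 26), and 0.72 and 0.82 without the gene-poor columns. With the share of the cytosolic ribosomal proteins the members' share had a rho of 0.39 and 0.68, and 0.21 and 0.68 without the gene-poor columns. All these shares have the same denominator in each library.

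The lists of proteins that serve the mitochondrial ribosome without being part of its symbol family had lower median levels than the members. The 13 translation factors had a median of medians of 6.42 FPKM at the 4-cell stage and 5.34 at the 8-cell one, the 24 assembly factors 17.6 and 15.9, and the 20 aminoacyl-tRNA synthetases and amidotransferase subunits 9.61 and 7.49. Their pairs had median rho values of 0.13 and 0.05, 0.09 and 0.03, and 0.08 and 0.05. Of the translation factors 1 was called higher and 2 lower at the 8-cell stage: Gfm2, which recycles ribosomes, at 1.62, Mtrf1l, a release factor, at −1.93, and Mtfmt, which formylates the initiator tRNA, at −1.26. Of the assembly factors none was called higher and 4 lower, among them the rRNA methyltransferase Mrm1 at −3.15, with medians of 8.01 and 0.0132 FPKM, and the pseudouridine synthase Trub2 at −2.69, with 12.8 and 1.22. Of this last list none was higher and 4 lower, with Ears2 at −1.93 and Fars2 at −1.74 the largest, the enzymes for glutamate and phenylalanine. These counts stand beside the 5.17% called higher and 9.67% called lower of all genes, and the 9.87% and 18.5% of genes with a median above 1 at either stage. None of the 8 genes of mitochondrial DNA transcription and replication was called. The largest differences were −0.95 each for the transcription factor Tfb2m, with medians of 64 and 32.6 FPKM, and the elongation factor Tefm, with 81.5 and 41.7. Of the 5 mitochondrial ribosome proteins that carry other names none was called, and Dap3 had the largest difference, 0.70, with medians of 6.67 and 11.5.

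Promoters are shown for the highest member that carries each of 3 motifs, because members rose and fell together and factors that bind these motifs are known regulators of mitochondrial genes. Sequences of 300 bases, 250 before and 50 after the start site, were taken from RefSeq for GRCm38.p6 and were found for 69 of the 78 members. The start sites used for Mrpl22 and Mrpl18 lie 1621 and 1696 bases inside the annotated genes, and that for Mrps7 at the start of its gene. They are printed 5′ to 3′ in lower case, with the match in capitals, on the coding strand of each gene. The core of the NRF1 motif, GCATGCGC, is shown in the promoter of Mrpl22 (chr11:58171414-58171713, plus strand), where it lies on the opposite strand. The ETS motif that GABP binds, CCGGAAGT, is shown in that of Mrpl18 (chr17:12916042-12916341, minus strand). The YY1 motif, AAGATGGC, is shown in that of Mrps7 (chr11:115603890-115604189, plus strand).
Mrpl22: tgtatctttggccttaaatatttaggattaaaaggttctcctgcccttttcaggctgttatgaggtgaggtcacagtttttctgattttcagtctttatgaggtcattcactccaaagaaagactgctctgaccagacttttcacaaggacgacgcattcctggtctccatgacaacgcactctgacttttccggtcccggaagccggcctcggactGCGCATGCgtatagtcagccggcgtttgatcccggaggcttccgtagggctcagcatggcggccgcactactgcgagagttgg
Mrpl18: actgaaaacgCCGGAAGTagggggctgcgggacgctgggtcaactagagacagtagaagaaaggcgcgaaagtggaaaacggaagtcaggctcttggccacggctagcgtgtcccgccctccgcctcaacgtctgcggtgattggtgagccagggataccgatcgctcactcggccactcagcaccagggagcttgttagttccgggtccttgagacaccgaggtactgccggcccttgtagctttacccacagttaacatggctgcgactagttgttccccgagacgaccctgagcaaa
Mrps7: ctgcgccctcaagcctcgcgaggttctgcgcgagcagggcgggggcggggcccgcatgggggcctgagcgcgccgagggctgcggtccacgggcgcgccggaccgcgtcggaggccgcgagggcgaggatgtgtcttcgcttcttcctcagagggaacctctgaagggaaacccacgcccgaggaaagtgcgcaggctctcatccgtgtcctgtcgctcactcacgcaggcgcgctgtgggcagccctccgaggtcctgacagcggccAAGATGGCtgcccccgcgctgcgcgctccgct

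Both strands were searched, and GCATGCGC reads as GCGCATGC on the other strand. The NRF1 core was found in 8 of the 69 members, or 11.6%, against 3.05% of all 27025 genes with such a sequence and 7.42% of the 5811 of them with a median FPKM above 1 at either stage. Mrpl22, Mrps18b, Mrpl9, Mrpl10 and Mrpl17 were among them. The ETS motif was found in 12 members, or 17.4%, against 4.31% of all and 12.1% of expressed genes, with Mrpl18, Mrps18c and Mrpl43 among them. The YY1 motif was found in 12 members, or 17.4%, against 3.19% and 6.71%, with Mrps7, Mrps18a, Mrps24 and Mrpl36 among them. In all, 29 members held at least 1 of the 3 motifs and 3 members held 2, and no such share was taken over other genes. In Mrps7 the YY1 letters lie just behind the start site, and in Mrpl22 the NRF1 letters just before it. In Mrpl18 the ETS letters begin at position −240 from the start site used, near the far end of the sequence. A match of letters is a description and does not show that a factor binds there. Mrpl41 held none of the 3 in the sequence used here.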

How the data were processed

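Per the labels and the study's methods, reads of single blastomeres were aligned by the authors with STAR 2.5.1b to mm10, uniquely aligned reads were counted with HTSeq-count on UCSC RefSeq genes, and FPKM values were deposited in a gene table per stage. Every listed gene was above 0 in at least 1 blastomere of its stage, and the highest value was above 1 for 13576 4-cell and 13041 8-cell genes. The gene lengths and totals behind the FPKM values, and whether counting used strand, are not given in the sources used here. Rows and columns equal the gene and resolved-blastomere numbers that the study gives per stage, and each table was assigned to its stage by them. No column was left unused, and repeat tables and embryos labelled 5-cell or 6-cell are not analysed here.

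Entrez numbers were matched to RefSeq of GRCm38.p6, the assembly behind mm10, and 15200 of 15218 and 15320 of 15342 were found. Exon lengths, overlaps and promoters come from that release, which is later than the one counted. Log2 differences used log2(FPKM + 1), which understates changes of low genes. FPKM denominators were estimated from the most frequent single-fragment step of genes with 1 transcript, and with them 90.6% to 96.4% of the lowest values came out whole within 0.1. Spearman's rho was computed over blastomeres for genes with a median above 1. The stage difference and the covariation were tested on simulated data with normal noise, which held no runs of zeros and no gene-poor columns. The other steps were not tested in this way. Alternatives were other thresholds (0.1, 5 and 20) and a pseudocount of 0.1, means, a rescaling to 1000000, Pearson's r, and leaving out columns. Python 3.11.15 with numpy 2.4.6 and pandas 2.3.3 was used.

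Genes named in the text are the paralogues Mrps18a, Mrps18b and Mrps18c, Mrpl10, which the study names, and by stage the 5 highest and 5 lowest in level, the 5 widest and 5 narrowest in interquartile range and the 3 highest and 3 lowest in median rho, and the 3 closest pairs and the most negative pair. The 5 largest stage differences in each direction and, of other lists, the largest differences were named too, and members that dropped out in neighbouring columns were added. Members tied with these in median rho or interquartile range at the printed digits were named as well. The members, lists and rules were chosen with earlier results of these data known.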

Additional observations from a re-analysis of the deposited data

How the results depend on the processing

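No paired analysis was possible because the column names carry no embryo or replicate number, and the planned comparison of lineages within embryos was not run for the same reason. Of the members, 4 were called between stages (3 higher, 1 lower), beside 5.17% of all genes called higher and 9.67% lower. When means of log2 values replaced medians 13 were called (11 higher, 2 lower), beside 4.56% and 6.76% of all genes. At a difference of 0.5, a limit chosen after seeing the data, 31 were called (19 higher, 12 lower), or 24.4% and 15.4%, beside 11.9% and 17.8% of all genes. The shares of all genes include genes with a median at or below 1, which no member has. Of the 7131 genes with a median above 1 at either stage, which are closer to the members in level, 1557 were higher and 2255 lower at that limit. Without the 6 8-cell columns with the fewest detected genes, a set chosen after seeing the data, 6 members were called (3 higher, 3 lower). Of all genes 7.64% were then called higher and 7.62% lower. With any single blastomere left out 4 to 6 members were called, and no share of all genes was taken there. Mrpl41 was called lower under every alternative run, with a difference of -2.05 to -1.66, while Mrps35 and Mrpl36 fell below the limit without the gene-poor blastomeres (0.95 and 0.76) and Mrps2 without the columns named NA (0.84). The members' median difference was 0.28 with means, 0.09 after rescaling, 0.01 without the gene-poor blastomeres and -0.02 without the 6 8-cell columns with the fewest genes. The number of members above 1 in every 4-cell blastomere was 17, and 53 without the 3 gene-poor columns, beside 8.88% and 17.9% of all genes. This number ran from 17 to 31 when 1 column was left out, and from 50 to 54 at the 8-cell stage, again with no share of all genes taken. Rescaling each column to 1000000 changed the level from 63.4 to 142 and from 67.1 to 158 FPKM, since the deposited values sum to less, and leaving out 1 column gave 61.1 to 66.1 and 64.4 to 67.5. The members' median rho of 0.32 at the 4-cell stage was 0.51 by Pearson's r, 0.22 after rescaling and 0.22 without the gene-poor blastomeres, with 0.26 to 0.33 when 1 column was left out. The 8-cell value of 0.21 was 0.17 by Pearson's r, 0.10 after rescaling, 0.22 above a median of 20, 0.23 without the gene-poor blastomeres, 0.17 without the 6 columns with the fewest genes and 0.24 without the columns named NA, with 0.18 to 0.22 when 1 column was left out. After rescaling, all genes had 0.04 and 0.03.

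The limits are these. Each stage is 1 sample of blastomeres whose embryos the columns do not name, so no difference has a test. A value of 0 can be a lost transcript as well as an absent one, and a member of median length reaches an FPKM of 1 with as few as 2.64 fragments in S57. Reads of a single molecule were not told apart.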
